A study of Mus musculus with 4 samples.

Results

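Ccdc85a endothelial nuclei are the nuclei of injured mouse hearts that carried transcripts of endothelial cells together with Ccdc85a, Slc28a2, Cdh23 and Eepd1. They numbered 3411 of the 27048 nuclei kept, which came from 39696 deposited barcodes, and were 941 and 1078 in the libraries with an injured father and 794 and 598 in those with an uninjured father. A nucleus was kept with at least 500 unique molecular identifiers (UMIs, counts of captured RNA molecules), at least 300 genes, under 5% mitochondrial UMIs and under 3% of its UMIs on the cardiomyocyte genes Ttn, Ryr2 and Myh6 together. A kept nucleus was a member if it held at least 3 UMIs over Flt1, Ptprb, Pecam1 and Cdh5, and at least 2 UMIs over the 4 Ccdc85a-set genes, with strictly more of them than of a Kirrel3 set (Kirrel3, Lhx6, Samd5, Vegfc, Kcnc2) and of a Fabp4 set (Fabp4, Gpihbp1, Cxcl12, Btnl9, Ly6c1). At most 2 UMIs over the endocardial genes Npr3, Tmem108 and Nrg1 and at most 1 UMI over Pdgfra, Pdgfrb and Mrc1, genes of fibroblasts, pericytes and macrophages, were allowed. These counts chose the members, so levels of these genes are descriptions and not results.

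Nuclear RNA was counted in 4 libraries, each from the whole snap-frozen heart of 1 male wild-type C57BL/6J mouse. Every heart had been injured at day 1 post partum and was taken 21 days later, and the series held no uninjured offspring among the samples used here. In 2 libraries the father had been injured (injured-father libraries 1 and 2) and in the other 2 it had not (uninjured-father libraries 1 and 2). The labels name neither the kind of injury nor the father or litter of each heart, so litter and the father's injury cannot be told apart. The Ter119 antibody, which marks red blood cells, was used in the sort to exclude blood cells.

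Capillaries are the thinnest vessels of the heart, and their endothelial cells pass oxygen, fatty acids, glucose and other solutes from blood to the muscle. Capillary endothelium is usually told from that of arteries and veins by transport and lipid-handling genes such as Rgcc, Car4, Cd36 and Gpihbp1, whereas arteries carry connexins and Notch ligands and veins carry Nr2f2, Ephb4 and von Willebrand factor. Of the 4 set genes, Slc28a2 encodes a sodium-coupled carrier that takes up purine nucleosides such as adenosine, Cdh23 an atypical cadherin known from the hair cells of the inner ear, and Ccdc85a a coiled-coil protein.

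Members were shallow nuclei, with medians of 1621, 1885.5, 1611 and 1464 UMIs in injured-father libraries 1 and 2 and uninjured-father libraries 1 and 2, the order used for all lists of 4 values. Their UMIs summed to 1775262, 2279778, 1504689 and 997401. Levels are given in CPM, the usual depth-scaled count: a gene's UMIs as a share of all UMIs of the class in a library. Scrublet, a doublet caller, marked 7.23%, 3.99%, 5.79% and 9.53% of members, which were kept. Pairs of libraries shared 23 to 33 barcodes, and at most 1 barcode was a member in both.

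Ccdc85a carried most of the set. Its transcripts were found in 89.9%, 95.9%, 90.7% and 93.5% of members, and it gave between 58.9% and 63.4% of the set's UMIs. Eepd1 was found in 67.2% to 72.4% of members, Slc28a2 in 53.3% to 62.8% and Cdh23 in 30.5% to 34.8%. The median member held 6, 8, 7 and 6 UMIs of the set, and from 10.6% to 12.6% of members held only 1 of the 4 genes. Ccdc85a stood at 2232, 2723, 2479 and 2382 CPM in members, Eepd1 at 821, 780, 996 and 838 CPM, Slc28a2 at 449, 574, 504 and 550 CPM and Cdh23 at 260, 216, 229 and 261 CPM. Slc28a2 has a near-identical neighbour in the mouse genome, so its counts may be split with that copy. In the GRCm38 build, Ccdc85a lies at chr11:28385685-28584324, Slc28a2 at chr2:122426477-122461137, Cdh23 at chr10:60302748-60696490 and Eepd1 at chr9:25481547-25604110. These positions are from the GENCODE M21 annotation, matched by gene identifier.

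Ccdc85a transcripts were not limited to members. A UMI of Ccdc85a was found in 47.4% of 1394 Kirrel3 nuclei and in 64.2% of 1585 Fabp4 nuclei, the endothelial classes that meet the same gates with the Kirrel3 or the Fabp4 set leading. In 979 fibroblast-type nuclei, chosen by at least 3 UMIs of Pdgfra and no UMI of the 4 gate genes, the share was 10.3%, although these were deeper (median 3187 UMIs, against 1662 in members). After thinning to 1000 UMIs, which left out shallower nuclei and kept 3033 members, 1286 Kirrel3, 1422 Fabp4 and 973 Pdgfra nuclei, the shares were 85.0% in members, 34.4% and 51.3% in Kirrel3 and Fabp4 nuclei and 3.70% in Pdgfra nuclei.

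Ablim3, which encodes an actin-binding LIM protein, was given as a marker of these nuclei but took no part in their choice. It stood at 894, 1306, 1173 and 1211 CPM in members, at 278, 440, 408 and 393 CPM in Kirrel3 nuclei and at 736, 1020, 998 and 1085 CPM in Fabp4 nuclei. Members were above Fabp4 nuclei in each of the 4 libraries by a small margin, a mean log2 ratio of 0.25 ± 0.08 (SD, n = 4), and above Kirrel3 nuclei by 1.57 ± 0.06. A UMI of Ablim3 was found in 75.1% of members, 42.0% of Kirrel3 nuclei, 70.0% of Fabp4 nuclei and 8.48% of Pdgfra nuclei.

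Along the set's own count, Ablim3 was lowest in the nuclei just outside the threshold in 3 of 4 libraries. Nuclei with 1 UMI of the Ccdc85a set and none of the others, which numbered 44, 29, 36 and 25, had 202, 162, 519 and 1266 CPM of Ablim3. Members with 2 UMIs, just inside, numbered 100, 39, 53 and 47 and had 642, 1032, 1022 and 1035 CPM, and members with 10 or more had 968, 1375, 1228 and 1254 CPM. The capillary gene Rgcc moved from 63.0, 80.8, 160 and 158 CPM just outside to 148, 188, 252 and 417 CPM just inside. The counts outside were small, from 8 to 40 UMIs for Ablim3 and from 4 to 8 for Rgcc. The nuclei just outside could hold no UMI of the Fabp4 set, whose genes are capillary genes, whereas members with 2 UMIs could hold 1. The step across the threshold is therefore a description and not a result.

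**Figure D1:**
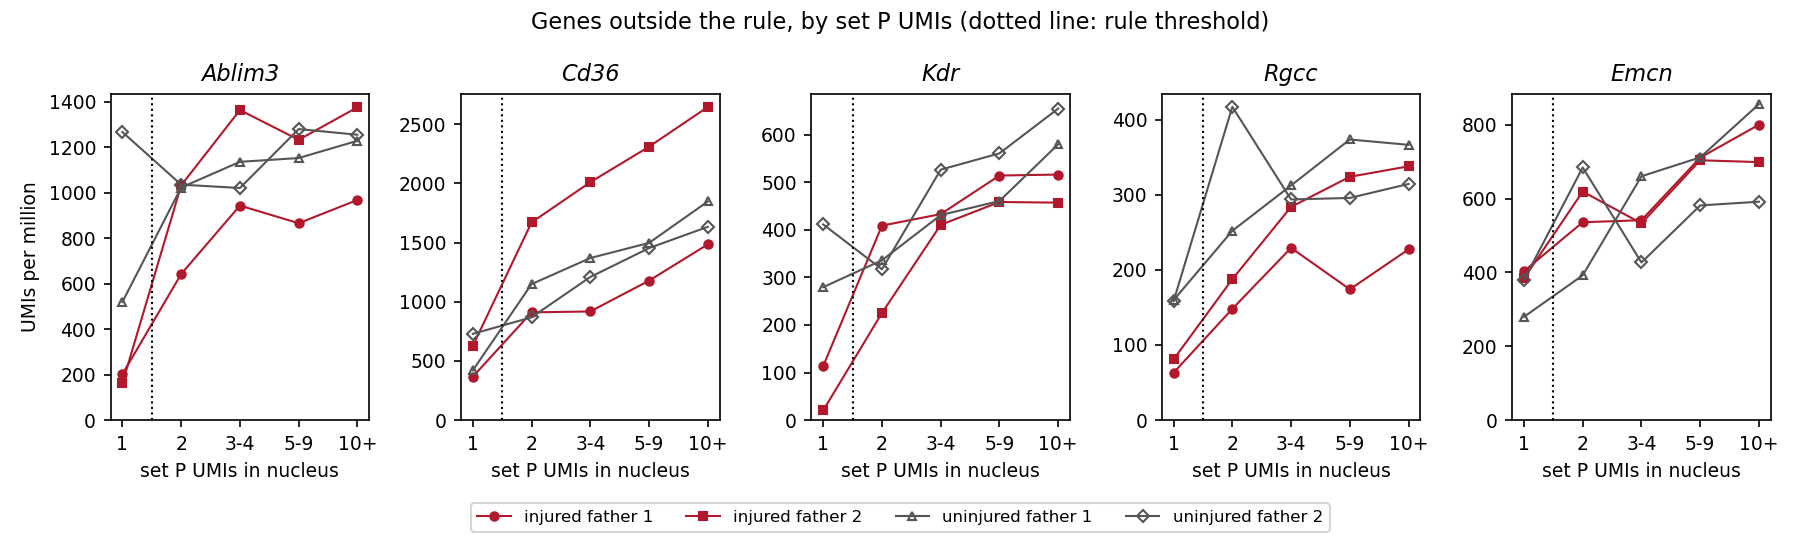
Levels of 5 genes outside the rule, in CPM (vertical axis), in nuclei grouped by their UMIs of the Ccdc85a set (set P, horizontal axis), with 1 line per library and the rule's threshold dotted. Ablim3 was at 202, 162 and 519 CPM just outside the threshold in the first 3 libraries and at 1266 CPM in uninjured-father library 2, where 25 nuclei were counted. Nuclei just outside held no UMI of the Kirrel3 or Fabp4 set, whereas members could.

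The label of capillary endothelium was set beside marker lists, leaving out genes of the rule. Endothelial genes chose the members, so their endothelial identity is not a result. Of 22 pan-endothelial genes outside the rule, 21 were found in members of all 4 libraries, and their sum was 12743, 14890, 13815 and 13777 CPM. Etv2, a factor of embryonic endothelium, was at 0 UMIs, which allows up to 0.458 CPM over all members (3 counts; this limit covers counting error only). All 13 capillary genes were found in members of all 4 libraries, but so were 10 of 10 cardiomyocyte and 11 of 11 fibroblast markers outside the rule. Being found in summed nuclei therefore does not tell cell types apart. Cd36, a fatty acid carrier, was at 1208, 2419, 1597 and 1422 CPM, Kdr, the main VEGF receptor, at 492, 448, 497 and 566 CPM, and Car4, a membrane carbonic anhydrase, at 117, 184, 120 and 110 CPM.

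Arterial and venous genes were low beside the pooled Kirrel3 and Fabp4 nuclei. Of 16 arterial genes at 10 CPM or more, 12 were lower in members than in the pooled Kirrel3 and Fabp4 nuclei in 4 of 4 libraries and 0 were higher, with a median log2 ratio of -1.002. Over all 9218 genes of that level outside the rule, 20% were lower and 12.1% higher in 4 of 4 libraries. These 2 percentages are the background for all counts against the pooled classes, and no test was made, since the classes were chosen from the same nuclei. Against Kirrel3 nuclei alone 9 arterial genes were lower and 4 higher, where 16.4% of all genes were lower and 14.1% higher. Against Fabp4 nuclei alone 11 were lower and 0 higher, where 19.1% of all genes were lower and 12.7% higher. Gja5, an arterial connexin, was at 0.563, 3.51, 1.99 and 1.00 CPM in members and at a mean of 35.9 CPM in Kirrel3 nuclei. Dll4, a Notch ligand of arteries and sprouting capillaries, did not follow the list, with 58.4 CPM in members, 21.9 CPM in Kirrel3 nuclei and 84.0 CPM in Fabp4 nuclei.

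Of 10 venous genes, 9 were lower in members than in the pooled classes in 4 of 4 libraries and 1 higher, with a median log2 ratio of -0.59. Against Kirrel3 nuclei alone 9 were lower and 1 was higher. Against Fabp4 nuclei alone 1 was lower and 2 were higher, where 19.1% of all genes were lower and 12.7% higher. Vwf, von Willebrand factor, was at 31.5, 35.5, 37.9 and 22.1 CPM in members, close to a mean of 37.6 CPM in Fabp4 nuclei and far below the 373 CPM of Kirrel3 nuclei. Nr2f2, the vein-fate factor, was at 59.4, 245 and 79.9 CPM in members, Kirrel3 and Fabp4 nuclei. The 1 venous gene above the pooled classes was Nrp2, a co-receptor for VEGF and semaphorins, at 1213 CPM in members against 729 and 950 CPM. Lymphatic genes (4 of 8 lower, 0 higher, median -0.86) and endocardial genes (3 of 7 lower, 0 higher, median -0.64) were low beside the pooled classes as well. Endocardial genes were lower than in Kirrel3 nuclei in 7 of 7 and lower than in Fabp4 nuclei in 1 of 7. Lymphatic genes were lower than in Kirrel3 nuclei in 2 of 8, with 1 higher, and lower than in Fabp4 nuclei in 7 of 8. Prox1, the lymphatic master factor, was at 28.1 CPM in members and at 103 CPM in Fabp4 nuclei.

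Of 13 capillary genes, 10 were higher in members than in Kirrel3 nuclei in 4 of 4 libraries and 0 lower, where 14.1% of all genes were higher. Aqp1, Aplnr and Meox2 were not among the 10. Against Fabp4 nuclei, 8 of 13 were lower and 1 was higher, where 19.1% of all genes were lower and 12.7% higher. Against both classes pooled, 4 of 13 capillary genes were higher in 4 of 4 libraries (Rgcc, Car4, Aqp1 and Meox2) and 1, Fabp5, was lower, with a median log2 ratio of 0.07. Against Kirrel3 nuclei alone, Car4 differed by a mean log2 ratio of 1.97, Rgcc by 1.42 and Kdr by 1.18, each in 4 of 4 libraries. Against Fabp4 nuclei, the mean log2 ratios were -0.54 for Kdr, -0.44 for Cd36, -0.54 for Cd300lg, -0.58 for Tcf15, -0.30 for Lpl and -1.37 for Fabp5. Meox2, a homeobox factor that works with Tcf15 in heart capillaries, went the other way, with 1155 CPM in members and 879 CPM in Fabp4 nuclei. Capillary genes outside the rule thus stood mostly above their level in Kirrel3 nuclei and mostly below that in Fabp4 nuclei. Gpihbp1 and the other genes of the Fabp4 set are capillary genes too, and the rule kept them below the Ccdc85a set.

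**Figure D2:**
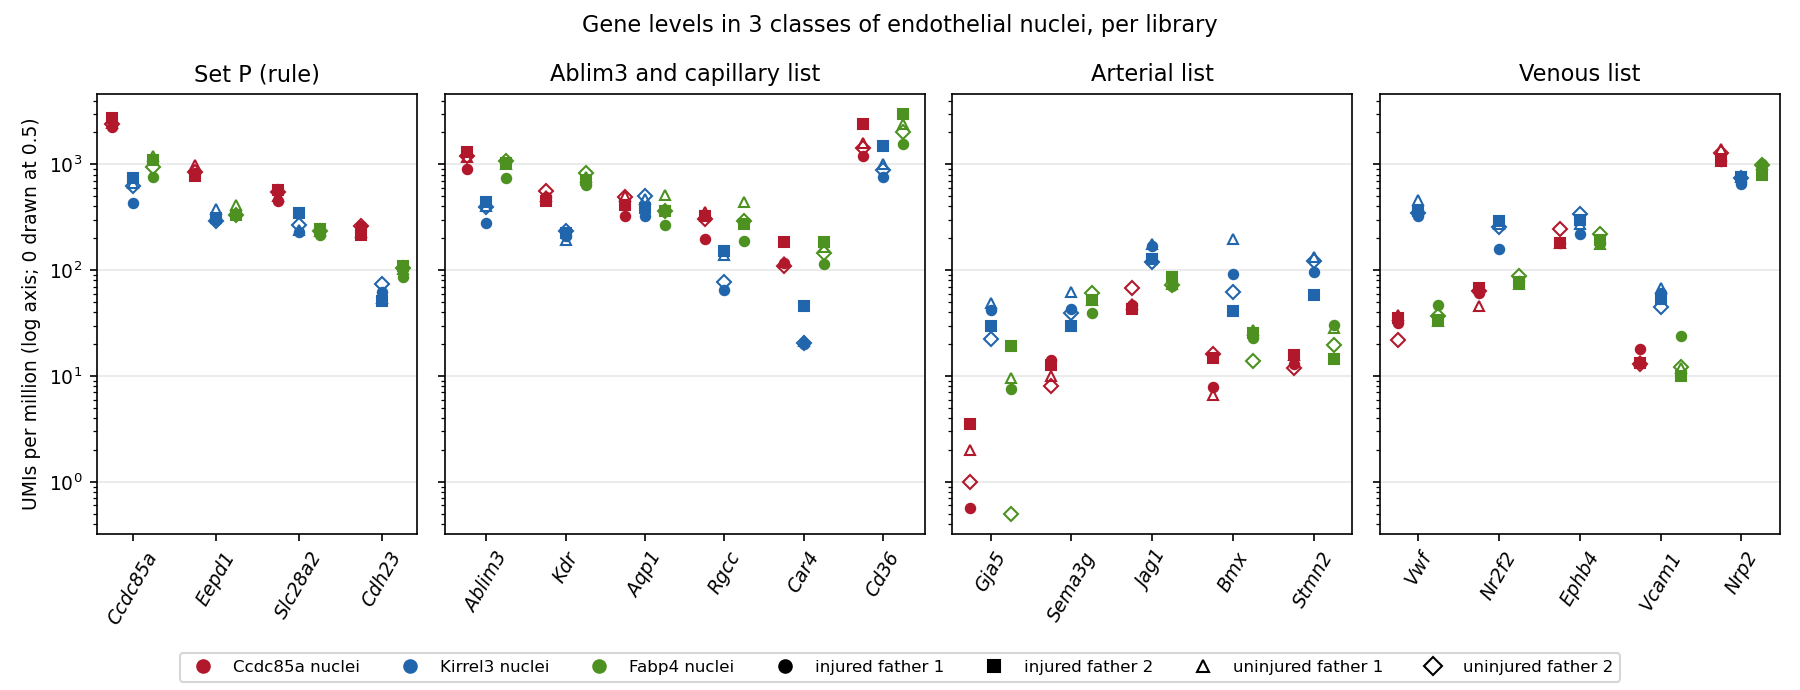
Levels of the Ccdc85a set, of Ablim3 and capillary genes, and of arterial and venous genes in Ccdc85a, Kirrel3 and Fabp4 nuclei, in CPM on a log axis, with 1 point per library. Gja5 lay between 0.563 and 3.51 CPM in Ccdc85a nuclei, and Vwf between 22.1 and 37.9 CPM there and between 327 and 457 CPM in Kirrel3 nuclei.

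Beyond the lists, few genes were raised in members by much. Among 4171 genes at 50 CPM or more outside the rule, 1 was higher in members than in the pooled other endothelial nuclei in 4 of 4 libraries with a mean log2 ratio of 1 or more, and 47 were lower with a mean of -1 or less. A ratio of that size in each of the 4 libraries was found for 0 higher and 10 lower genes. The first was Cd247, the zeta chain of the T cell receptor, at 86.7, 66.7, 75.1 and 82.2 CPM in members, 39.0, 29.2, 20.5 and 18.5 CPM in Kirrel3 nuclei and 32.8, 39.1, 32.2 and 35.2 CPM in Fabp4 nuclei. The lowest library of members lay above the highest of either other class. Cd3e, which defines T cells, was at 5.07, 0.877, 0.665 and 1.00 CPM in members, and Skap1 was high in injured-father library 1 alone, at 120 CPM against 28.9, 30.6 and 31.1 CPM. The 10 T and NK cell markers, Cd247 among them, summed to 297, 122, 128 and 135 CPM in members and to 141, 81.6, 72.3 and 50.002 CPM in the other classes, and 7 of 10 were found in members of all 4 libraries. Without Cd247 the other 9 summed to 210, 55.3, 53.2 and 53.1 CPM in members and to 105, 47.5, 46.1 and 21.9 CPM in the other classes, higher in members in 4 of 4 libraries. Themis was also higher than the pooled classes in 4 of 4. Their part in the Cd247 difference was not tested. A UMI of Cd247 was found in 9.29% of members, 3.66% of Kirrel3, 5.24% of Fabp4 and 1.63% of Pdgfra nuclei, and a UMI of Cd3e in 0.352% of members.

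Kit and Tnfrsf21 followed Cd247. Kit, the receptor for stem cell factor, was at 123, 101, 120 and 121 CPM in members, and at means of 30.4 and 76.9 CPM in Kirrel3 and Fabp4 nuclei. Tnfrsf21, a death-domain receptor of the TNF receptor family, was at 88.4, 110, 140 and 117 CPM, against means of 40.9 and 65.8 CPM. For both genes the members lay above each of the other classes in 4 of 4 libraries, with mean log2 ratios over the pooled classes of 0.97 ± 0.27 and 0.94 ± 0.14 (SD, n = 4).

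The 25 genes with the highest ratios ran from 1.10 (Cd247) to 0.56 (Sh3tc2), with 10 CPM added to both levels. All 25 were above Kirrel3 and Fabp4 nuclei by mean, and 20 of 25 were above both in 4 of 4 libraries. Genes of adhesion and guidance among them were Ephb1, an Eph receptor (333, 164 and 237 CPM in members, Kirrel3 and Fabp4 nuclei), Jam3, a junctional adhesion molecule (207, 69.1 and 195 CPM), and Nav3, a microtubule-binding protein (1385, 661 and 1053 CPM). Genes of signalling through diacylglycerol and small GTPases were Dgkd (325, 159 and 241 CPM), Rasgrp2 (146, 70.2 and 116 CPM), Prkd1 (501, 223 and 426 CPM) and Arhgap18 (842, 315 and 755 CPM). Bcl2, which blocks cell death, was at 489, 236 and 378 CPM. Dlg2 (283, 62.7 and 253 CPM), Efr3b and Jam3 were near the level of Fabp4 nuclei, so that their ratio came from low Kirrel3 nuclei. The other genes were Ablim3, Ldlrad3, Adam19, St3gal5, Nrros, Cabp1, Smco4, Coro2b, Rcsd1, Asxl3 and Tspan15.

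The 15 genes with the lowest ratios ran from -2.34 (Vwf) to -1.31 (Pkhd1l1), and 10 of 15 were below both other classes by mean. Several are known from larger vessels. Eln, elastin, was at 146, 181, 181 and 171 CPM in members and at means of 1093 and 209 CPM in Kirrel3 and Fabp4 nuclei. Igfbp5, a binding protein of insulin-like growth factors, was at 58.0, 41.7, 39.9 and 39.1 CPM, against means of 294 and 99.6 CPM. Fbln5, an elastic-fibre protein (19.5, 84.2 and 58.0 CPM), Bmx, a kinase of arterial endothelium (11.4, 97.7 and 22.4 CPM), Stmn2, Sema3d, Pcsk5 and Hs3st1 were lower too. Myrip, which links secretory granules to actin, Nuak1, Sulf1, Zbtb7c and Slco2a1 were higher in members than in Fabp4 nuclei by mean and low only beside Kirrel3 nuclei.

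**Figure D3:**
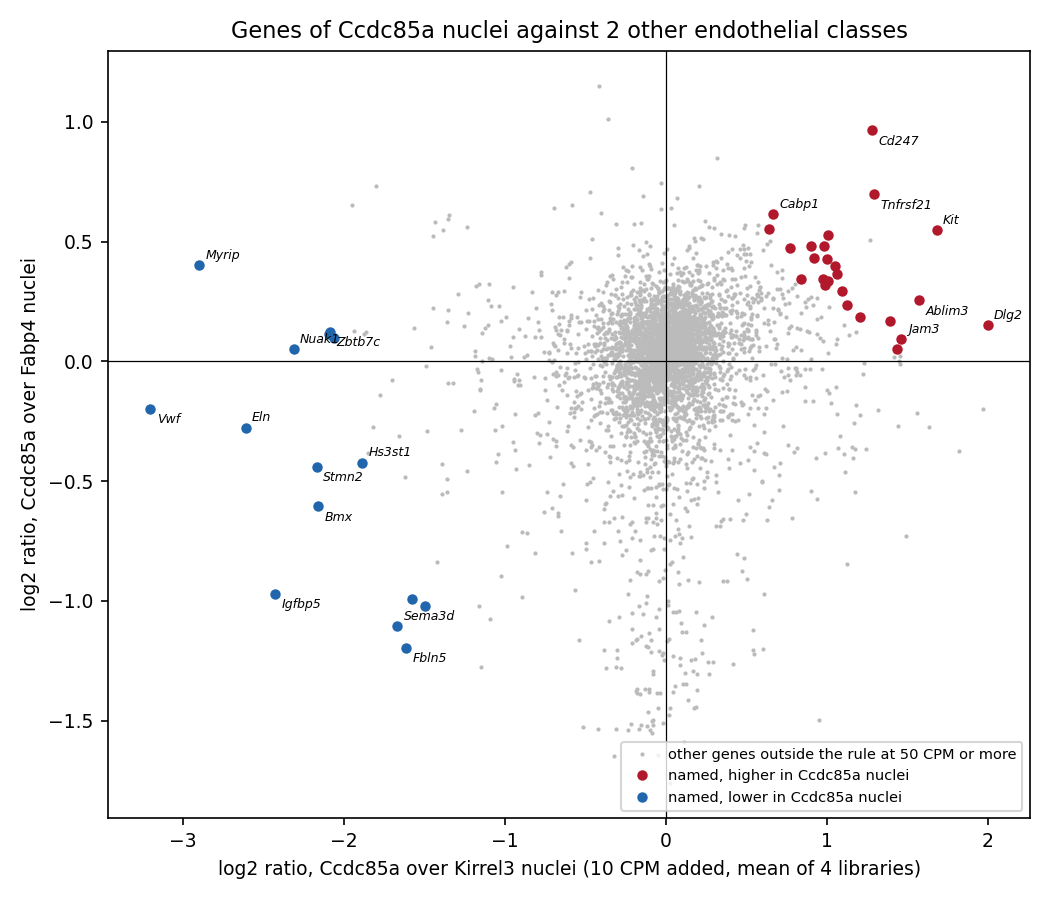
Mean log2 ratio of each gene in Ccdc85a nuclei over Kirrel3 nuclei (horizontal axis) and over Fabp4 nuclei (vertical axis), with 10 CPM added, for genes outside the rule at 50 CPM or more, with 18 of the 40 named genes labelled. The 25 red genes lie to the upper right, with Cd247 the farthest from Fabp4 nuclei, and 10 of the 15 blue genes lie to the lower left.

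Nucleoside genes were given for the role of Slc28a2. Of 6 such genes outside the rule at 10 CPM or more, 5 were lower in members than in the pooled classes in 4 of 4 libraries. The other, Adora2a, was higher. Against Kirrel3 nuclei alone 4 were lower and 1 higher, and against Fabp4 nuclei alone 1 was lower and 2 were higher. Adora2a, the adenosine receptor that widens coronary vessels, was at 68.7, 82.9, 68.5 and 53.1 CPM in members. It was above both other classes in 4 of 4 libraries, with a mean log2 ratio over the pooled classes of 0.54 ± 0.21 (SD, n = 4). Entpd1, which breaks down extracellular ATP, was at 199 CPM in members, 793 CPM in Kirrel3 nuclei and 181 CPM in Fabp4 nuclei, and Nt5e, which makes adenosine from AMP, at 16.8, 55.0 and 18.1 CPM. The other concentrative carriers were near 0, with means of 1.33 CPM for Slc28a1 and 0.583 CPM for Slc28a3. Slc29a1, an equilibrative carrier, was at 34.5 CPM.

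Genes of VEGF, Tie and BMP signalling differed by member. Besides Nrp2, the co-receptor Nrp1 was higher in members in 4 of 4 libraries, at 1891 CPM against 1214 and 1694 CPM. Tek, the angiopoietin receptor, lay between the other classes, at 664 CPM against 710 CPM in Kirrel3 and 501 CPM in Fabp4 nuclei. Of 18 genes of BMP and TGF-beta signalling, 12 were lower in 4 of 4 libraries and 3 higher, with a median log2 ratio of -0.28. Smad1, a transducer of BMP signals, was among the higher, at 362 CPM against 206 and 292 CPM. Smad6, an inhibitor of that pathway, was at 108 CPM against 214 and 181 CPM, and the BMP target Id1 at 91.4 CPM against 61.6 and 228 CPM.

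Flow-response genes were split. Of 15, 7 were lower in members in 4 of 4 libraries and 5 higher, with a median log2 ratio of -0.07. Klf2 and Klf4, factors induced by laminar flow, were at 180 and 102 CPM in members, at 255 and 187 CPM in Kirrel3 nuclei and at 335 and 183 CPM in Fabp4 nuclei. Plxnd1, a semaphorin receptor that senses flow, was the highest by ratio, at 543 CPM against 298 and 490 CPM. Immediate early and heat shock genes, which also respond to tissue handling, were lower in 9 of 15 and higher in 0. Against Kirrel3 nuclei alone 5 were lower and 4 higher, and against Fabp4 nuclei alone 9 were lower and 0 higher. Their sums were 703, 679 and 1152 CPM in members, Kirrel3 and Fabp4 nuclei. Mitochondrially encoded genes were lower in 12 of 13 and higher in 0. They were lower than in Kirrel3 nuclei in 8 of 13 and lower than in Fabp4 nuclei in 13 of 13. These differences in stress and mitochondrial RNA moved with the classes, and their part in the other differences was not tested.

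Genes of cell structure and adhesion are given by list. Of 19 actin and LIM genes, 9 were higher in 4 of 4 libraries and 6 lower (median 0.05). Besides Ablim3, the related Ablim1 was at 3043 CPM in members against 2133 and 2831 CPM. Of 20 basement membrane and integrin genes, 7 were higher and 6 lower. Col4a2, a collagen IV chain of the capillary basement membrane, was at 904 CPM in members, 377 CPM in Kirrel3 and 904 CPM in Fabp4 nuclei, and Itga6, a laminin receptor, at 856, 462 and 785 CPM. Of 18 junction genes, 5 were higher and 2 lower; Cdh13, T-cadherin, was at 2831 CPM against 1984 and 2277 CPM, and Afdn, afadin, at 841 CPM against 566 and 733 CPM. Of 17 Notch genes, 3 were higher (Mfng, Notch4 and Maml3) and 6 lower.

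RNA of other cell types was present in members. A UMI of Ttn, titin, was found in 96.5% of members and in 97.8% of Pdgfra nuclei. Cardiomyocyte markers outside the rule summed to 3134, 3821, 3764 and 3225 CPM in members, and 10 of 10 were found in all 4 libraries. Haemoglobin and other erythroid genes summed to 1779, 2460, 3348 and 2046 CPM. Fibroblast markers summed to 1301, 1024, 1174 and 1524 CPM and pericyte markers to 420, 308, 375 and 485 CPM. Erythroid RNA was highest in Fabp4 nuclei, at a mean of 5691 CPM. Members in cell cycle were rare: 4, 2, 2 and 2 nuclei held transcripts of at least 3 of 10 cycle genes.

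Members made up a larger share of kept nuclei in both injured-father libraries than in both uninjured-father libraries. They were 13.6% and 14.1% of kept nuclei in the injured-father libraries (13.9% ± 0.359, SD, n = 2) and 11.2% and 11.1% in the uninjured-father libraries (11.1% ± 0.0590, SD, n = 2), and the groups did not overlap. The log2 fold change was 0.31 with a standard error of 0.06, and the adjusted p over 6 classes of nuclei was 0.0237 (edgeR quasi-likelihood test, two-sided). Within the 7726 nuclei that passed the endothelial gate and exclusions, members were 45.3% and 46.2% against 42.5% and 41.2% (adjusted p = 0.0461, edgeR). The other 5 classes did not pass the test: Kirrel3 nuclei were 5.27% ± 0.806 against 4.93% ± 0.665 (SD, n = 2; adjusted p = 0.868, edgeR) and Fabp4 nuclei 5.85% ± 0.512 against 5.96% ± 1.11 (adjusted p = 0.924, edgeR).

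The exact permutation test of the share gave a two-sided p = 0.33, the smallest that 2 libraries against 2 can give. The direction held in all 10 other settings tried, but the call was lost in 7 of them. The share of nuclei thinned to 1000 UMIs was 9.90% and 11.5% against 8.94% and 8.76%, with 991, 605, 788 and 933 shallower nuclei left out (adjusted p = 0.387, edgeR). The adjusted p (edgeR) was 0.110 without nuclei marked by Scrublet, 0.419 with at least 3 UMIs of the set, 0.0526 with Ttn, Ryr2 and Myh6 under 1%, 0.769 without uninjured-father library 1 and 0.889 without uninjured-father library 2. Scrublet marked 55.0% of the nuclei with an endothelial gate and a failed exclusion in uninjured-father library 2, and 25.7% to 27.0% in the others.

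**Figure D4:**
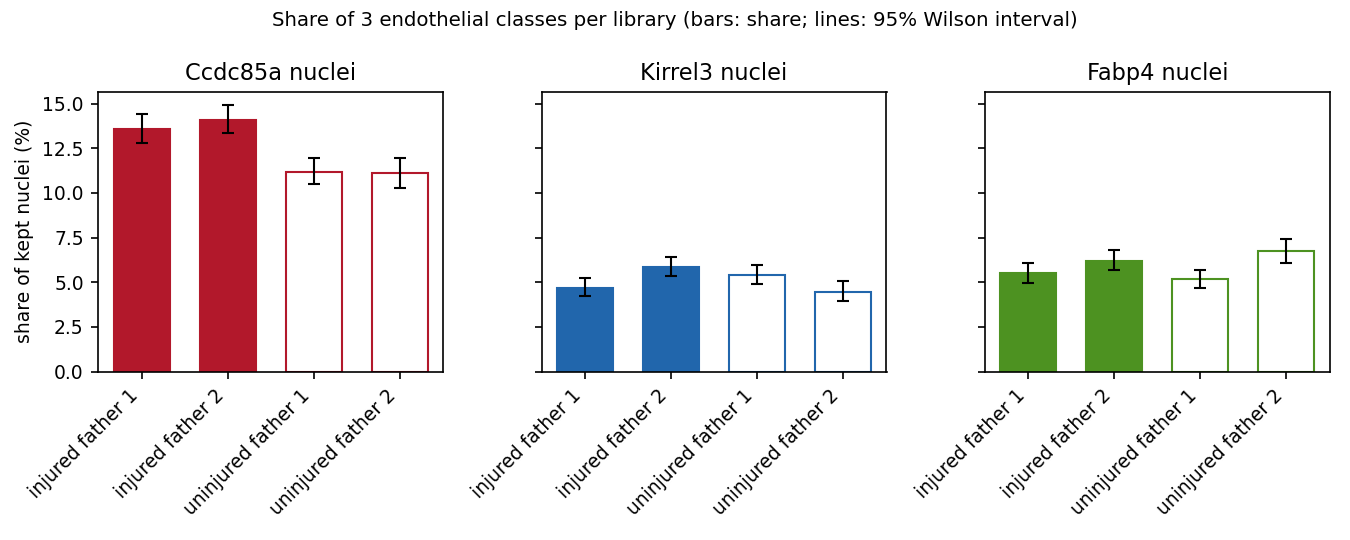
Share of kept nuclei (percent, vertical axis) of Ccdc85a, Kirrel3 and Fabp4 nuclei in each library, with 95% Wilson intervals that cover counting error only. Ccdc85a nuclei were 13.6% and 14.1% in the injured-father libraries (filled) and 11.2% and 11.1% in the uninjured-father libraries (open), while the groups overlapped in the other classes.

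Gene levels in members were compared between fathers on UMIs summed per library. Of 10142 genes tested, 3 were higher with an injured father and 0 lower (edgeR, adjusted p under 0.05), which is 0.0296% of genes. At an unadjusted p under 0.05, 541 genes passed (314 higher, 227 lower), which is 5.33%, and the median log2 fold change of all genes was 0.00. Both libraries of 1 group lay above both of the other in 33.3% of genes (13.9% higher with an injured father, 19.4% lower). With DESeq2 1 gene passed (122 unadjusted) and with limma-voom 3 (517 unadjusted). Nothing in the labels says that hearts of a group came from separate litters, so p values measure the spread between these hearts.

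Slc15a2, a proton-coupled carrier of small peptides, had 169 and 71 UMIs with an injured father and 0 and 2 with an uninjured father, or 95.2, 31.1, 0 and 2.01 CPM. The 0 allows up to 1.99 CPM. The summed counts, scaled by library totals, differed 74.0-fold with an exact counting interval from 20.3 to 615, and the fitted log2 fold change was 6.16 with a standard error of 0.75 (adjusted p = 0.00116, edgeR). Leaving out 1 library moved it from 4.96 (without uninjured-father library 1) to 9.83 (without uninjured-father library 2). The injured-father libraries themselves differed: a UMI was found in 14.5% of members of library 1 and in 4.64% of those of library 2. Pdgfra nuclei of the same libraries had 5.66% and 3.92%, with median depths of 3492 and 3465 UMIs, and after thinning members had 8.64% and 2.57% and Pdgfra nuclei 1.89% and 2.27%. In library 2 the share in members was thus little above that in fibroblast-type nuclei.

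Gpd1, glycerol-3-phosphate dehydrogenase, had 35 and 33 UMIs against 1 and 1, or 19.7, 14.5, 0.665 and 1.00 CPM. The counts differed 21.0-fold (exact counting interval 5.59 to 177), and the log2 fold change was 4.31 with a standard error of 0.64 (adjusted p = 0.0104, edgeR). A UMI was found in 2.87% and 1.58% of members of the injured-father libraries and in 3.14% and 2.24% of Pdgfra nuclei, which were deeper. Kirrel3 nuclei of these libraries had 2.46% and 1.57%, and Fabp4 nuclei 5.79% and 2.32%. After thinning, members had 1.98% and 0.792% and Pdgfra nuclei 0.629% and 1.42%. Kirrel3 nuclei then had 1.00% and 0.939%, and Fabp4 nuclei 3.63% and 0.887%. Markers of fat cells, which use Gpd1 to make lipid, leaned the same way by father. Of the 10 adipocyte markers 4 were tested in members, and 4 of 4 had a positive fold change (median 0.83, 0 called). Car3 was at 10.7, 32.9, 3.32 and 0 CPM (adjusted p = 0.169, edgeR), Adipoq at 2.25, 0.877, 0 and 0 CPM and Plin1 at 3.94, 12.3, 1.33 and 0 CPM. A 0 allows up to 1.99 and 3.01 CPM in uninjured-father libraries 1 and 2, so the Adipoq counts do not separate the fathers. Car3 and Plin1 were higher in injured-father library 2 than in library 1, whereas Gpd1 was higher in library 1. The adipocyte list summed to 1158, 1550, 1145 and 1127 CPM, most of it Ghr and Pparg, which endothelial nuclei also carry. Its part in the Gpd1 result was not tested.

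Camk1d, a calcium- and calmodulin-dependent kinase, was at 9473 and 7137 CPM with an injured father and at 4325 and 3654 CPM with an uninjured father, with a log2 fold change of 1.09 and a standard error of 0.19 (adjusted p = 0.0446, edgeR). A UMI was found in 99.4% of members and 99.5% of Pdgfra nuclei. Of the other genes given for the series as a whole none was called. Lars2, the mitochondrial leucyl-tRNA synthetase, was at 1764, 1268, 1129 and 859 CPM (log2 fold change 0.63, adjusted p = 0.443, edgeR), and Cdk8 at 1104, 840, 942 and 532 CPM (0.41, adjusted p = 0.956, edgeR). Without uninjured-father library 1 they were 0.89 and 0.94, without uninjured-father library 2 0.42 and 0.037, and without injured-father library 1 0.39 and 0.22. Cmss1 and Gphn had fold changes of 0.27 and 0.20 with overlapping groups.

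The 3 calls were not held by every choice of libraries or method. Without uninjured-father library 1 none of the 3 passed, and without uninjured-father library 2 only Slc15a2 did; without injured-father library 1 or 2 all 3 passed, among 64 and 74 calls. Camk1d was the 1 call of DESeq2, and 0 genes passed with a minimum count of 30. Without nuclei marked by Scrublet Slc15a2 and Camk1d passed, and Gpd1 had an adjusted p of 0.256 (edgeR).

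The same contrast in the other endothelial classes, which come from the same hearts, is given side by side. Slc15a2 had a log2 fold change of 5.18 in Kirrel3 nuclei (adjusted p = 0.286, edgeR) and 5.02 in Fabp4 nuclei (adjusted p = 0.0487, edgeR), and Camk1d 1.00 (adjusted p = 0.286, edgeR) and 1.04 (adjusted p = 0.0100, edgeR). Summed Gpd1 counts, scaled by library totals, differed 26.9-fold in Kirrel3 nuclei (exact counting interval 4.54 to 1091) and 14.2-fold in Fabp4 nuclei (4.61 to 71.0). These ratios rest on 1 and 3 UMIs with an uninjured father. Kirrel3 and Fabp4 nuclei together were 2979 nuclei, fewer than the members. The difference of the father effect between members and both classes pooled was tested for 10798 genes, and 0 passed (edgeR, 542 at an unadjusted p under 0.05, smallest adjusted p 0.520). The differences were 0.98 for Slc15a2, 0.26 for Gpd1 and 0.07 for Camk1d on the log2 scale. The smallest p values belonged to Acaca, which makes malonyl-CoA (difference -0.95), and Grm7 (-2.02).

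**Figure D5:**
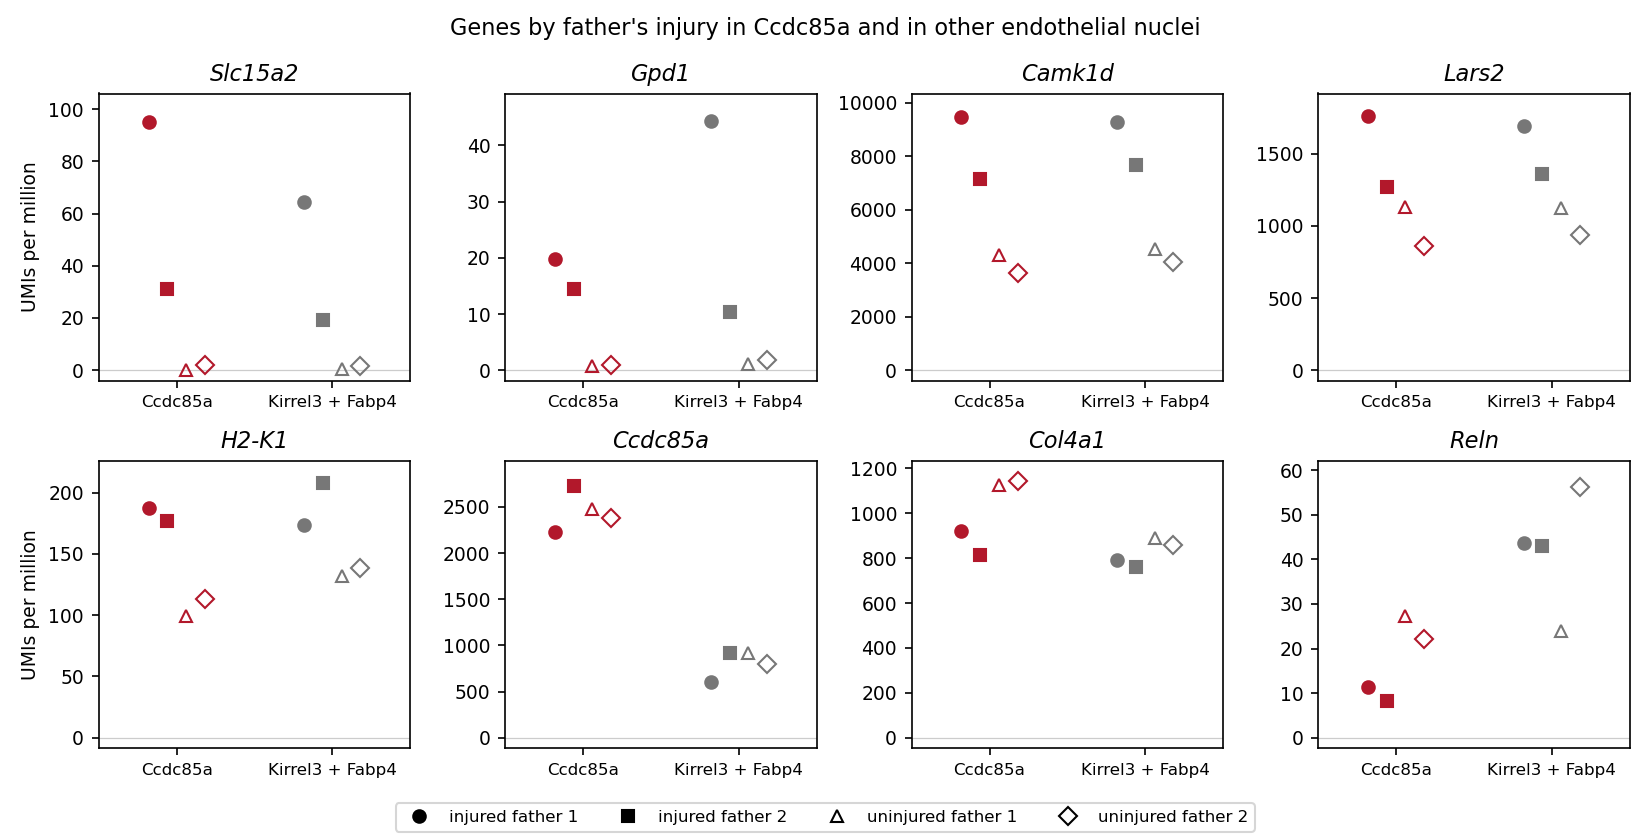
Levels in CPM of 8 genes in Ccdc85a nuclei (red) and in Kirrel3 and Fabp4 nuclei together (grey), with 1 point per library, filled for injured and open for uninjured fathers. Slc15a2, Gpd1 and Camk1d were higher in both injured-father libraries in Ccdc85a nuclei, whereas Ccdc85a itself overlapped between groups, at 2232 and 2723 against 2479 and 2382 CPM.

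No gene of the rule was among the calls, of 26 tested. Ablim3 had a log2 fold change of -0.07, with 894 and 1306 CPM against 1173 and 1211 CPM. Kit and Cd247 overlapped between the groups, with fold changes of -0.08 and 0.00. Among genes lower with an injured father, those with the smallest p were Col23a1, a membrane collagen, at 3.94 and 7.02 against 23.3 and 13.03 CPM (log2 fold change -1.69), Reln, reelin, at 11.3 and 8.33 against 27.2 and 22.1 CPM (-1.33), and Akap5, a kinase anchor, at 20.3 and 11.4 against 29.9 and 46.1 CPM (-1.22). All 3 had an adjusted p of 0.428 (edgeR). Reln is also in the lymphatic list, of which 5 genes were tested by father. All 5 were negative (median -0.81), and 3 of 5 were lower without overlap, against 19.4% of all genes. In Kirrel3 and Fabp4 nuclei Reln had log2 fold changes of 1.12 and 0.02. Its father effect in members differed from that in both classes pooled by -1.61 (adjusted p = 0.520, edgeR).

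No gene was called in any list other than the 6 genes shared across the series, where Slc15a2 and Camk1d were. The lists are therefore given by direction, beside 50.4% positive over all genes tested. Of 19 basement membrane and integrin genes, 14 were negative (median -0.14), 9 were lower and 3 higher without overlap, among them Col4a1 at 920 and 815 against 1128 and 1144 CPM (log2 fold change -0.35, adjusted p = 0.886, edgeR) and Col15a1 at 239 and 130 against 276 and 315 CPM (-0.66, adjusted p = 0.565, edgeR). Flow-response genes were lower without overlap in 8 of 15 (median -0.11), Notch genes in 7 of 16 (median -0.19), where 19.4% of all genes were lower without overlap, and tip cell genes, which share Col4a1 and Col4a2 with the basement membrane list, in 6 of 16 (median -0.13). Capillary genes were negative in 10 of 13 and positive in 3 (median -0.14). Without overlap 3 were lower and 1 was higher. Aqp1, a water channel, was at 327 and 417 against 502 and 493 CPM (log2 fold change -0.38, adjusted p = 0.882, edgeR). Aplnr, the apelin receptor, was at 141 and 120 against 150 and 218 CPM (-0.44, adjusted p = 0.842, edgeR). Car4 went the other way with overlapping groups, at 117 and 184 against 120 and 110 CPM (0.43, adjusted p = 0.887, edgeR). Meox2 was higher without overlap, at 1180 and 1318 against 1084 and 1041 CPM (0.27, adjusted p = 0.998, edgeR).

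Fatty acid genes were positive in 11 of 14 (median 0.20), and 4 were higher and 0 lower without overlap, against 13.9% and 19.4% of all genes. Acsl1, which activates long-chain fatty acids, was at 132 and 175 against 99.7 and 89.2 CPM (log2 fold change 0.73, adjusted p = 0.384, edgeR), and Ppara, a factor of fatty acid oxidation, at 79.4 and 123 against 64.5 and 53.1 CPM (0.82, adjusted p = 0.428, edgeR). Both genes are also carried by cardiomyocytes and fat cells, whose RNA was present in members. By father, cardiomyocyte markers were positive in 4 of 10 (median -0.13) and fat cell markers in 4 of 4 (median 0.83). The part of this RNA in the levels of both genes was not tested. Cd36 overlapped between the groups, with 1208 and 2419 against 1597 and 1422 CPM. Antigen presentation and interferon genes were positive in 11 of 21 (median 0.04), with 6 higher and 5 lower without overlap. H2-K1, a class I histocompatibility antigen, was at 188 and 177 against 99.0 and 113 CPM (0.82, adjusted p = 0.0738, edgeR), and Nlrc5, which switches on class I genes, at 37.7 and 33.8 against 17.9 and 18.0 CPM (1.02, adjusted p = 0.428, edgeR).

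Markers of other cells in members are given by direction too, and none was called by father. T and NK cell genes were positive in 3 of 4 tested (median 1.18), with Themis at 32.1 and 14.9 against 10.6 and 7.02 CPM and Skap1 at 120 CPM in injured-father library 1 alone. Fibroblast markers were negative in 9 of 10 and smooth muscle markers in 5 of 6, with Acta2 at 42.2 and 29.4 against 54.5 and 49.1 CPM. Erythroid genes were negative in 5 of 5 (median -0.39). Lower without overlap were 3 of 10 fibroblast, 3 of 6 smooth muscle and 1 of 5 erythroid genes, against 19.4% of all genes. Of 4 T and NK genes 1 was higher without overlap, against 13.9% of all genes. The summed level of each of these lists overlapped between fathers. The part of these markers in the gene lists above was not tested.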

How the data were processed

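Single-nucleus RNA was counted in 4 libraries. Per the file headers, the deposited matrices were made with Cell Ranger 6.0.1, and the submitters' processing notes also name Seurat 4.0. They hold raw UMI counts per gene and barcode, whole numbers that the authors had not normalized. The genome build is not given in the sources used here, and 21779 of 21884 gene identifiers are in GENCODE M21 (GRCm38).

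Nuclei were filtered and classed by the rule given above with Python 3.11.15, numpy 2.4.6, scipy 1.17.1 and pandas 2.3.3, and doublets were marked by Scrublet (scanpy 1.11.5). Figures used matplotlib 3.10.9. Kept nuclei had medians of 1789, 2220, 1958 and 1562 UMIs. Counts were summed per class and library, so the heart was the replicate. Genes were filtered with filterByExpr (minimum count 10), scaled by TMM and tested with the two-sided quasi-likelihood test of edgeR 4.0.16 (R 4.3.3), with Benjamini-Hochberg adjustment over all genes tested and a call under 0.05. The interaction test held library as a block. Standard errors were taken from the fold change and the F statistic. limma-voom (limma 3.58.1) and DESeq2 1.42.0 were alternatives. Counts were also simulated for 9910 genes, with 200 changed genes. On these the father test recovered 81% of changes of 1 log2 unit and 100% of 2 log2 units, with 7 false calls. Recovery was not split by gene level or by spread between libraries. These rates therefore describe the simulated counts only and give no power for genes with few UMIs, such as Slc15a2 and Gpd1. Whether they hold for the real libraries was not tested.

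The members and gene lists were chosen with earlier results of these data known. Named genes are the rule's genes and Ablim3, the 25 highest and 15 lowest ratios of members over the pooled other classes (same sign in 4 of 4 libraries, mean of 50 CPM or more where higher, predicted genes left out), the genes called by father or else the 3 with the smallest p in a direction, the 2 smallest p of the interaction, Slc15a2, Camk1d, Lars2, Cdk8, Cmss1 and Gphn, and from each list up to 5 by level, up to 4 by p and genes whose role is explained. Replicate numbers did not pair the libraries (correlation of deviations -0.0316 over 6854 genes).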

Additional observations from a re-analysis of the deposited data

How the results depend on the processing

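The share of members by father kept its direction in 10 of 10 other settings, and the log2 fold change fell short of the threshold with a replicate block (0.31, adjusted p = 0.308, edgeR), after thinning to 1000 UMIs (0.27), without nuclei marked by Scrublet (0.31), with 3 or more UMIs of the set (0.32) and with Ttn, Ryr2 and Myh6 under 1% (0.30). Leaving out 1 library gave 0.29 to 0.34, past the threshold without either injured-father library and short of it without uninjured-father library 1 (0.32) or 2 (0.31). The 3 calls by father became 61 with no filter on low counts, 0 with a minimum count of 30, 1 with DESeq2 and 0 to 74 without 1 library. They were 3 with a replicate block, of which 2 were shared (Gpd1 and Slc15a2), and Camk1d had an adjusted p of 0.0790 there (edgeR). Leaving the rule's genes out before adjustment, chosen after seeing the data, gave 3. Calls of the interaction stayed at 0 with a minimum count of 30, without Scrublet-marked nuclei and with 3 or more UMIs of the sets, and were 0 to 10 without 1 library. A group with 1 library left is assumed to vary like the others. Without 1 library, the fold change of Cmss1 ran from -0.10 (uninjured-father library 2) to 0.76 (uninjured-father library 1), and was -0.06 without injured-father library 1, and that of Gphn ran from -0.0472 to 0.50 for the same libraries. All 40 named ratios kept their sign in 4 of 4 libraries under 4 settings, and 29 of 160 single values moved by more than 1 SD, 27 of them with another pseudocount. The precision is limited by 2 hearts a group and by 997401 UMIs in members of uninjured-father library 2.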
